A study of Homo sapiens with 6 samples.

Results

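The cytosolic ribosomal protein genes encode the proteins that, together with ribosomal RNA, build the large and the small subunit of the ribosome. They were followed here in the established breast cancer cell line MDA-MB-231, which lacks hormone receptors, made to overexpress *circAAGAB*, a circular RNA formed from exons of the gene *AAGAB*. The genes were taken from the array's annotation by symbol: RPL or RPS with a number and an optional A, X, Y or L, together with *RPLP0* to *RPLP2* and *RPSA*. Pseudogenes and the mitochondrial ribosomal proteins were left out. By this rule 49 genes were found among 17687 named genes, 29 of the large subunit and 20 of the small subunit, each with 1 probe set. *RPLP0*, *RPLP2*, *RPSA*, *RPS27A* and *RPL5* were not analysed here.

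The cells were transfected with a *circAAGAB* expression plasmid or, as the control, with the empty vector, and total RNA was taken after 24 h. Each group had 3 Clariom S arrays, numbered 1 to 3 in the labels. Every sample was the same line under the same culture and transfection reagent, the transfection was transient, and the study's statistics section speaks of independent experiments in general without naming the arrays, so the p-values measure only the spread between these arrays, which may be technical. All values below are log2 signals after robust multichip averaging (RMA), in which a difference of 1 is a doubling, and every difference is *circAAGAB* overexpression minus empty vector. The number of arrays limits the precision. In bulk RNA a smaller share of cells with a transcript and less of it per cell cannot be told apart. RMA brings the arrays towards a common scale, so a change of all transcripts together could go unseen. The arrays were still not fully alike. Their SD over all probe sets ran from 2.08 on the number 1 *circAAGAB* array to 2.21 on the number 2 *circAAGAB* array.

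Ribosomal protein genes are among the most strongly transcribed genes of a growing cell, and their mRNAs are made in step so that the proteins can be assembled in equal numbers. Most of these mRNAs begin with a cytosine followed by a run of pyrimidines, the terminal oligopyrimidine (TOP) motif. Through it *LARP1* holds their translation back when nutrients are short and the mTOR pathway is less active. A few proteins also act away from the ribosome: *RPL11*, together with *RPL5*, binds MDM2 and so stabilises p53 when ribosome assembly is disturbed, and *RPS6* is phosphorylated by the S6 kinases below mTOR.

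The start sites are shown first because the TOP motif is the feature these genes are known to share. Promoter windows of 300 bases from RefSeq (GRCh38.p14), 250 before and 50 after the annotated start, were matched for 43 of the 49 genes. *RPL3L*, *RPL7*, *RPL30*, *RPL37*, *RPL39L* and *RPS15A* had no window matched. Printed below, 5′ to 3′ on the strand of the gene, are the 20 bases before and the 20 bases from the start. Capitals mark the pyrimidine run from the first base where the start is a C followed by at least 4 pyrimidines. The first 7 are the genes with a window whose *circAAGAB* arrays all lay above all empty vector arrays. Then come *RPS14*, *RPL41* and *RPS27*, from the genes of largest difference in their subunit, and *RPS27L* and *RPL10L*, whose differences were the highest and the lowest of all.
RPL27: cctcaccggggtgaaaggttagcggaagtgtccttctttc
RPL31: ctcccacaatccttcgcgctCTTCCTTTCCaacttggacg
RPL35: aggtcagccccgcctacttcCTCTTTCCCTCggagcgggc
RPL35A: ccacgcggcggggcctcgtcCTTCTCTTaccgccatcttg
RPL36A: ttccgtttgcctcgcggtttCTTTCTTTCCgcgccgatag
RPS23: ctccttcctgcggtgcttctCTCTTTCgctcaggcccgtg
RPS25: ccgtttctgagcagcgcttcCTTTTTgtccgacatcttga
RPS14: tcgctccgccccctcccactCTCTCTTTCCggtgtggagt
RPL41: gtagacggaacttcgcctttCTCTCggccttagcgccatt
RPS27: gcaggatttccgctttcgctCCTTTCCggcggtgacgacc
RPS27L: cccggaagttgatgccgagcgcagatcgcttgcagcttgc
RPL10L: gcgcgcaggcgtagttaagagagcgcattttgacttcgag

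The windows lie on GRCh38.p14 at chr17:42998399-42998438 (*RPL27*, plus strand), chr2:101002269-101002308 (*RPL31*, plus strand), chr9:124861938-124861977 (*RPL35*, minus strand), chr3:197950170-197950209 (*RPL35A*, plus strand), chrX:101390991-101391030 (*RPL36A*, plus strand), chr5:82278335-82278374 (*RPS23*, minus strand), chr11:119018324-119018363 (*RPS25*, minus strand), chr5:150449720-150449759 (*RPS14*, minus strand), chr12:56116613-56116652 (*RPL41*, plus strand), chr1:153990742-153990781 (*RPS27*, plus strand), chr15:63157458-63157497 (*RPS27L*, minus strand) and chr14:46651762-46651801 (*RPL10L*, minus strand). Of the 12 starts shown, 9 carry a TOP motif by this rule, with runs of 5 (*RPL41*) to 11 (*RPL35*) pyrimidines. *RPL27*, *RPS27L* and *RPL10L* do not have it at the annotated start. The start of *RPL27* is followed, within the bases shown, by a pyrimidine-rich stretch.

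Over all matched genes, a TOP start was found in 30 of 43 (69.8%), in 18 of 24 large subunit genes (75%) and in 12 of 19 small subunit genes (63.2%). It was found in 5.90% of the 14207 other genes of the array with a window. The runs had 5 to 14 pyrimidines, with a median of 8. An ETS core motif, CCGGAAG searched on both strands of the 300 bases, was present in 34.9% of the ribosomal protein genes and 16.5% of the other genes. A YY1 motif, AAGATGGC on both strands, was present in 9.30% and in 4.72%. For 5 genes with several windows, 1 match counted. A match is a match of letters and not a measured binding site. The genes with a TOP start had a median difference of 0.074 and 30 of 30 were higher with *circAAGAB* overexpression. The 13 genes without one at the annotated start had a median of 0.090 and 11 of 13 were higher. The rule reads only the annotated start, so a gene without a match is not shown to lack the motif.

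Nearly all ribosomal protein genes were slightly higher with *circAAGAB* overexpression. The mean of the 3 *circAAGAB* arrays was above that of the 3 empty vector arrays in 47 of 49 genes, against 49.6% of all 21448 probe sets, and below it in *RPL10L* and *RPL9*, against 50.4%. The differences were small. Their median was 0.073, their middle 50% lay between 0.044 and 0.11, and they ran from -0.10 in *RPL10L* to 0.26 in *RPS27L*, while the median over all probe sets was -0.0017. No gene reached a fold change of 1.5.

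No single ribosomal protein gene passed the test. With limma, two-sided and adjusted by Benjamini-Hochberg over all probe sets, 0 of 49 genes had an adjusted p under 0.05 (0.00466% of all probe sets, which is *AAGAB* alone), and every adjusted p rounded to 1.00. Unadjusted, 0 genes had a p under 0.05, against 2.18% of all probe sets in either direction, 1.19% higher and 0.988% lower. The lowest was that of *RPL27*, at 0.170. When the fit took the replicate number as a block, 0 genes were under 0.05 unadjusted, against 6.79% of all. The methods' test, run on each gene by itself, gave 3 genes an unadjusted p under 0.05 (*RPL30*, *RPL31* and *RPS23*), against 4.14% of all, and its lowest adjusted p among the genes was 0.876. The standard errors in limma draw on the spread of all probe sets, whose median SD within groups was 0.24. For the ribosomal protein genes that median was 0.083, with a range of 0.023 to 0.44, and their standard errors lay between 0.13 and 0.28.

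**Figure D1:**
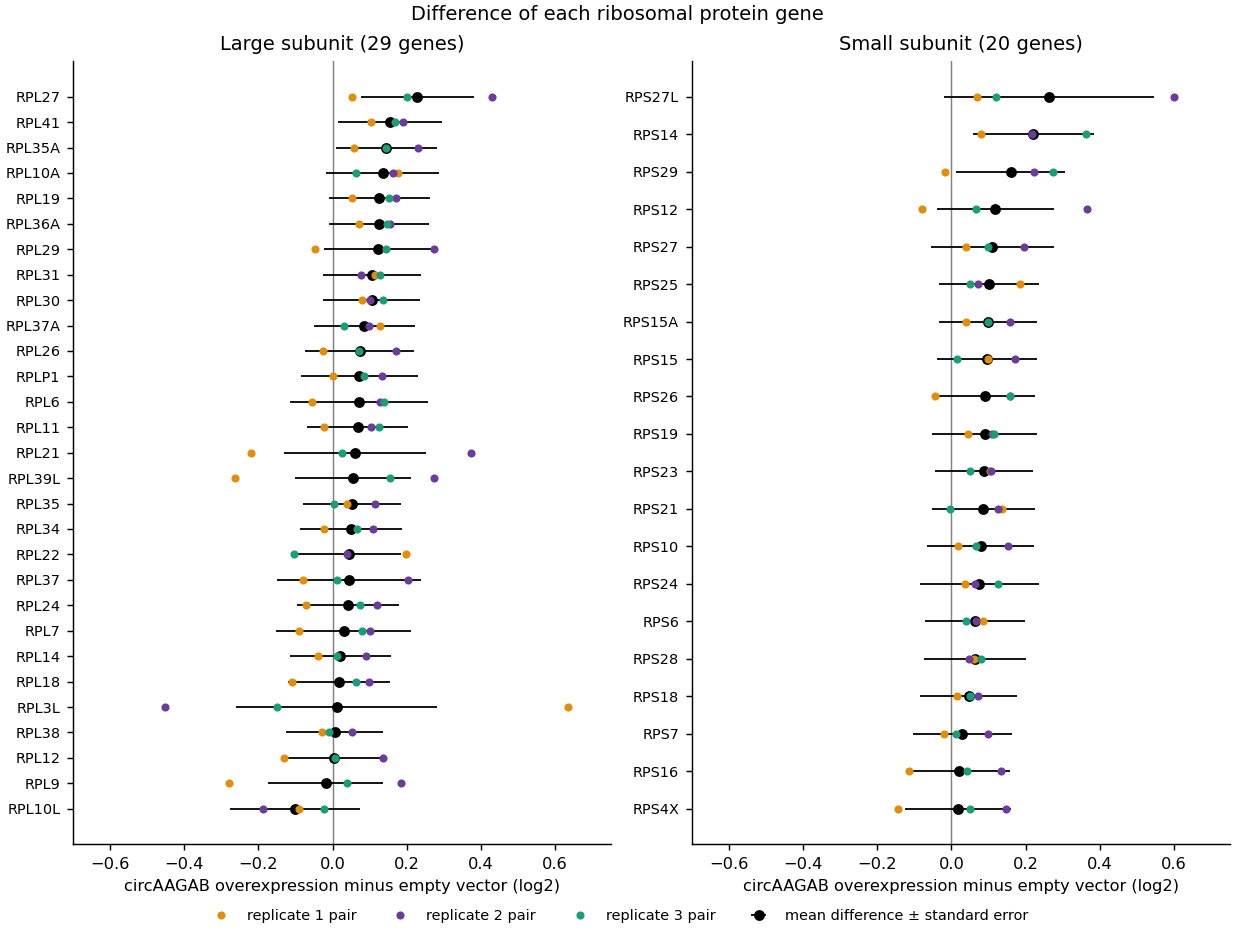
Difference of each ribosomal protein gene in log2 units, *circAAGAB* overexpression minus empty vector, for the large (left, 29 genes) and small (right, 20 genes) subunit. Black points are mean differences with the standard error from limma (n = 3 arrays per group), and coloured points are the differences within the arrays of replicate number 1, 2 and 3. All means but those of *RPL9* and *RPL10L* lie above 0, and the replicate 2 points reach furthest to the right in most rows.

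In the large subunit 27 of 29 genes were higher, with a median difference of 0.060. The largest was that of *RPL27*, a core protein of the subunit. Its signals were 9.45, 9.78 and 9.48 on the *circAAGAB* arrays, against 9.40, 9.34 and 9.27 on the empty vector arrays. All 3 *circAAGAB* values lay above all empty vector values, but by 0.053 at the closest, and the number 2 array carried most of the difference of 0.23 (standard error 0.15, unadjusted p = 0.170 from limma). *RPL41*, the smallest of the ribosomal proteins, followed. It measured 10.90, 11.11 and 11.01 with *circAAGAB* overexpression, against 10.80, 10.92 and 10.84 with the empty vector. The groups overlapped by 0.024, although each *circAAGAB* array was above the empty vector array of its number, and the difference was 0.15 (standard error 0.14).

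*RPL35A*, a gene mutated in some families with Diamond-Blackfan anaemia, came next. It had 10.89, 11.04 and 10.89 on the *circAAGAB* arrays and 10.83, 10.81 and 10.74 on the empty vector arrays. The groups did not overlap, and the difference was 0.14 (standard error 0.14). *RPL10A* measured 10.15, 10.03 and 9.83 with *circAAGAB* overexpression, against 9.98, 9.86 and 9.77 with the empty vector. Here both number 1 arrays were the highest of their group, the groups overlapped, and the difference was 0.13 (standard error 0.15). *RPL19* had 10.66, 10.67 and 10.59 on *circAAGAB* arrays and 10.61, 10.50 and 10.44 on empty vector arrays, a difference of 0.13 (standard error 0.14), with overlap between the lowest *circAAGAB* and the highest empty vector array.

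At the other end stood genes with no difference to speak of. *RPL38*, a protein that in the mouse is needed for the translation of certain Hox mRNAs, measured 12.07, 12.14 and 12.09 with *circAAGAB* overexpression, against 12.10, 12.08 and 12.10 with the empty vector. The arrays lay within a narrow band in both groups, and the difference was 0.0055 (standard error 0.13). *RPL12*, at the base of the stalk where translation factors bind, had 11.69, 11.81 and 11.72 on *circAAGAB* arrays and 11.83, 11.68 and 11.72 on empty vector arrays, a difference of 0.0043 (standard error 0.14). Its number 1 and number 2 pairs went opposite ways. *RPL9* measured 10.21, 10.61 and 10.42 with *circAAGAB* overexpression, against 10.49, 10.42 and 10.39 with the empty vector. Its *circAAGAB* replicate 1 array was the lowest of the 6, and the difference was -0.018 (standard error 0.16).

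Of the genes with a role outside the ribosome or at its stalk, *RPL11* had 10.81, 10.97 and 10.99 with *circAAGAB* overexpression, against 10.83, 10.86 and 10.87 with the empty vector. The difference was 0.068 (standard error 0.14), and the number 1 pair ran the other way. *RPLP1*, an acidic protein of the stalk that activates the factors of elongation, had 11.13, 10.93 and 10.90 on *circAAGAB* arrays and 11.13, 10.80 and 10.81 on empty vector arrays. Its number 1 arrays were equal to 2 decimals and above all others, and the difference was 0.072 (standard error 0.16), or 0.0013 to 0.18 with any 1 array left out.

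In the small subunit all 20 genes were higher with *circAAGAB* overexpression, with a median difference of 0.088. *RPS14*, whose reduced dosage underlies the anaemia of a deletion form of myelodysplastic syndrome, measured 10.10, 9.94 and 9.95 on the *circAAGAB* arrays, against 10.02, 9.72 and 9.58 on the empty vector arrays. Within each number the *circAAGAB* array was the higher one, but the number 1 empty vector array lay above 2 of the *circAAGAB* arrays. The difference was 0.22 (standard error 0.16), and with the replicate number as a block its unadjusted p was 0.110 (adjusted p = 0.740), the lowest among the ribosomal protein genes. *RPS29* had 10.87, 10.88 and 10.84 with *circAAGAB* overexpression, against 10.89, 10.66 and 10.57 with the empty vector. The *circAAGAB* arrays agreed within 0.04 while the number 1 empty vector array lay above all 3 of them, and the difference was 0.16 (standard error 0.15).

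*RPS12* measured 10.30, 10.73 and 10.45 on the *circAAGAB* arrays and 10.38, 10.36 and 10.38 on the empty vector arrays. The number 2 *circAAGAB* array stood apart, and the difference was 0.12 (standard error 0.16). *RPS27*, a zinc finger protein of the small subunit, had 11.01, 11.44 and 11.24 with *circAAGAB* overexpression, against 10.98, 11.24 and 11.14 with the empty vector. Both number 1 arrays were the lowest of their group, each *circAAGAB* array was above the empty vector array of its number, and the difference was 0.11 (standard error 0.17), or 0.0075 to 0.22 with any 1 array left out.

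The smallest differences of this subunit belonged to *RPS4X*, at 0.018, *RPS16*, at 0.020, *RPS7*, at 0.030, *RPS18*, at 0.046, and *RPS28*, at 0.063. *RPS4X* is the X-linked form of a protein that also has a copy on the Y chromosome. It measured 11.29, 11.58 and 11.46 with *circAAGAB* overexpression, against 11.44, 11.43 and 11.41 with the empty vector, so that the empty vector arrays lay between the *circAAGAB* arrays. *RPS18* was tight in both groups, with 11.49, 11.46 and 11.47 on *circAAGAB* arrays and 11.48, 11.39 and 11.42 on empty vector arrays. *RPS6*, the S6 kinase substrate, had 10.77, 10.87 and 10.83 with *circAAGAB* overexpression, against 10.68, 10.81 and 10.79 with the empty vector, and its difference was 0.064 (standard error 0.13).

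In 9 of 49 genes the 3 *circAAGAB* arrays all lay above the 3 empty vector arrays, against 3.87% of all probe sets, and in 0 genes they all lay below, against 4.04%. Such separation was more common among bright probe sets. Of 487 other probe sets with a mean signal of at least 10, 44 lay above in this way and 24 below. Of the 9, 6 belong to the large subunit and 3 to the small one. *RPL27* and *RPL35A* are described above, and the other 7 were chosen after their values were seen. *RPL36A*, a protein near the exit site for tRNA, had 10.43, 10.57 and 10.48 on *circAAGAB* arrays and 10.36, 10.41 and 10.33 on empty vector arrays, a difference of 0.12 (standard error 0.13). *RPL31*, at the mouth of the exit tunnel for the new protein chain, had 10.53, 10.53 and 10.58 with *circAAGAB* overexpression, against 10.42, 10.46 and 10.45 with the empty vector. *RPL30* had 11.50, 11.53 and 11.52 on *circAAGAB* arrays and 11.42, 11.43 and 11.38 on empty vector arrays. In both the SDs within groups were 0.03 or less, the differences were 0.11 each (standard errors 0.13 each), and the gap between the groups was 0.075 for *RPL31* and 0.066 for *RPL30*, the widest of the 9.

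*RPL35*, also at the mouth of the exit tunnel, had 11.56, 11.61 and 11.54 on *circAAGAB* arrays and 11.52, 11.50 and 11.53 on empty vector arrays. Its gap was only 0.0027, and its difference 0.052. *RPS25*, which many viral internal ribosome entry sites need, had 11.50, 11.37 and 11.34 with *circAAGAB* overexpression, against 11.31, 11.29 and 11.29 with the empty vector, a difference of 0.10. *RPS15A* measured 11.17, 11.30 and 11.23 on *circAAGAB* arrays and 11.14, 11.14 and 11.13 on empty vector arrays, a difference of 0.098. *RPS23*, a protein of the decoding centre, had 11.88, 11.92 and 11.91 with *circAAGAB* overexpression, against 11.77, 11.81 and 11.86 with the empty vector, a difference of 0.087. For *RPS25* and *RPS15A* the 3 empty vector arrays lay within 0.03 of each other, and the distance between the groups came from how far the *circAAGAB* arrays were spread above them.

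**Figure D2:**
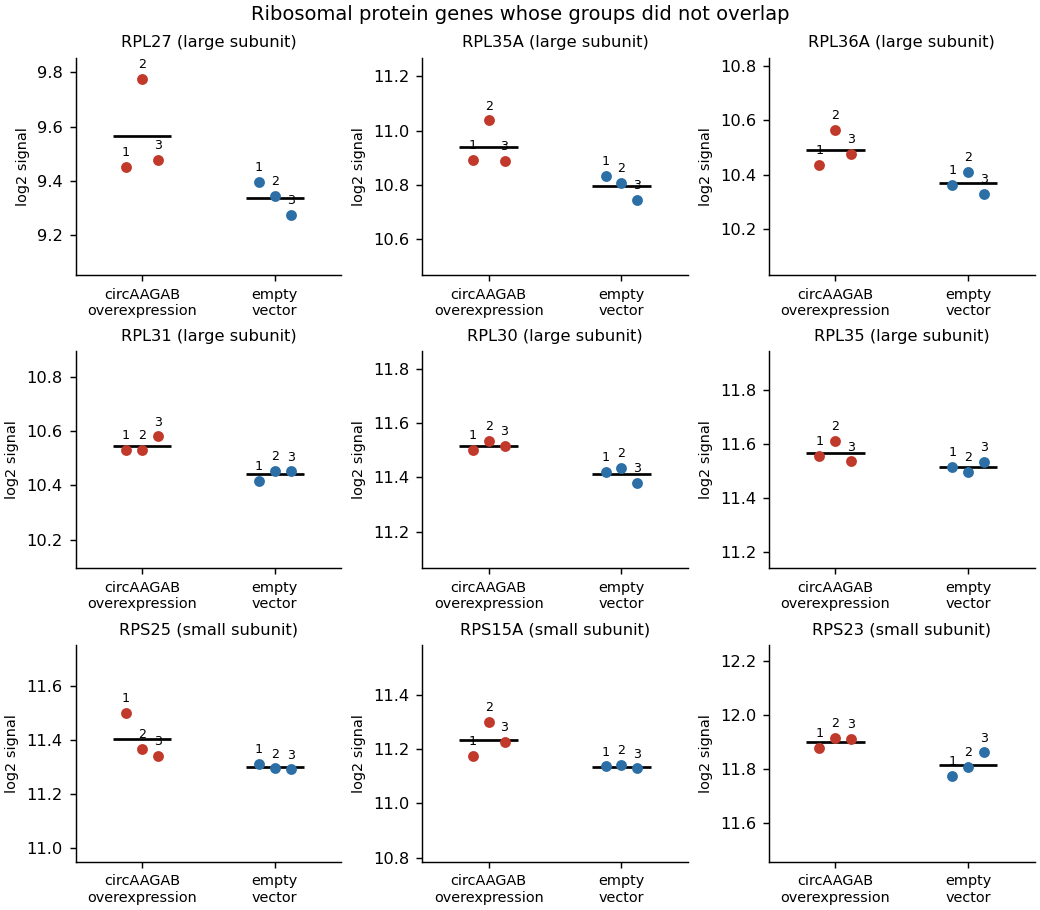
Log2 signals of the 9 ribosomal protein genes whose *circAAGAB* overexpression arrays (red, left) all lay above their empty vector arrays (blue, right). Each point is 1 array with its replicate number, black bars are group means, and every panel spans 0.8 log2 units. The gap between the groups runs from 0.0027 in *RPL35* to 0.075 in *RPL31*.

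The difference was not alike in the 3 replicate numbers. Within the number 1 arrays 27 of 49 genes were higher with *circAAGAB* overexpression, against 52.7% of all probe sets, within number 2 47 of 49, against 47.4%, and within number 3 44 of 49, against 51%. The median differences were 0.018, 0.13 and 0.067. In number 1, 13 of 29 large subunit genes were higher, with a median of -0.024, and 14 of 20 small subunit genes, with a median of 0.039. In number 2 the medians were 0.13 and 0.14 for the large and small subunit, and in number 3 they were 0.072 and 0.066. Higher in all 3 numbers were 24 genes, 11 large and 13 small, against 15.4% of all probe sets, and lower in all 3 was *RPL10L* alone, against 14.8%. Of 487 other probe sets with a mean signal of at least 10, 146 were higher in all 3 numbers and 92 lower.

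Set against each gene's own mean over the 6 arrays, 46 of 49 genes lay above it on the number 2 *circAAGAB* array, with a median deviation of 0.091. On the number 1 and number 3 *circAAGAB* arrays the medians were -0.0098 and 0.023, with 23 and 33 genes above. On the empty vector arrays they were -0.029, -0.043 and -0.036, with 20, 9 and 13 genes above. The array that stood furthest from the others was thus the number 2 *circAAGAB* array. Without it, 35 of 49 genes were higher, against 53.2% of all probe sets, and 14 were lower. The medians were 0.031 for the large and 0.058 for the small subunit, against 0.0147 over all probe sets. Without both arrays of number 2 the medians were 0.041 and 0.067, against 0.011 over all probe sets. Without both arrays of number 1, 46 genes were higher, against 48.1% of all probe sets. The medians were then 0.11 and 0.097, against -0.00899 over all probe sets.

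**Figure D3:**
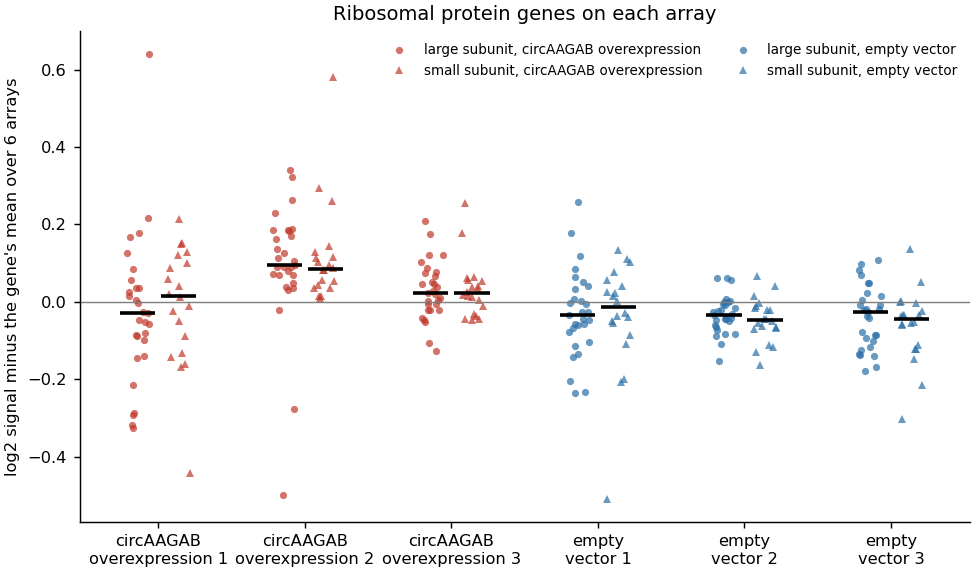
Deviation of each ribosomal protein gene from its own mean over the 6 arrays, in log2 units, for the *circAAGAB* overexpression arrays (red, left) and the empty vector arrays (blue, right). Circles are large subunit and triangles small subunit genes, and black bars are medians. The *circAAGAB* replicate 2 array has a median of 0.091 over all 49 genes, and the empty vector arrays lie between -0.043 and -0.029.

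The replicate number took more of the variation of these genes than the group did. Summed over the 49 genes, 15.3% of the sum of squares lay between the groups (1 degree of freedom), 63.1% between the replicate numbers (2) and 21.6% in the rest (2), against 12.9%, 64.5% and 22.6% over all probe sets. In 33 genes the number 1 array departed from the mean of the other 2 in the same direction in both groups, downward in 18 and upward in 15. Over all probe sets the share with the same direction was 73.3%. In 32 genes the departure of the number 1 arrays, averaged over both groups, was larger than the difference between the groups. For this count the share over all probe sets was not computed. *RPL37* had 10.57 in number 1 against 11.15 and 11.01 with *circAAGAB* overexpression, and 10.65 against 10.95 and 11.00 with the empty vector. *RPL6* (10.55 against 11.02 and 11.04 with *circAAGAB* overexpression, and 10.60 against 10.89 and 10.91 with the empty vector) went the same way. *RPL37* and *RPL6* were chosen here after their values were seen, as genes whose number 1 arrays stood apart. What the replicate number stands for is not given in the sources used here.

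The ribosomal protein genes were also among the brightest probe sets, 44 of 49 of them within the top 5% (signals above 9.33), although a probe set's signal also depends on its probes. Bright probe sets as a whole lay slightly to the same side: of the 487 others with a mean signal of at least 10, 58.5% were higher with *circAAGAB* overexpression and the median difference was 0.022. Compared at like signal, the ribosomal protein genes had a median of 0.13 (n = 5) against 0.024 for the 969 others between 9 and 10, 0.089 (n = 14) against 0.021 for 353 others between 10 and 11, 0.068 (n = 24) against 0.029 for 109 others between 11 and 12, and 0.042 (n = 2) against -0.023 for 25 others between 12 and 13. The median thus became smaller with the signal and was above that of the other probe sets in each of the 4 ranges. These are descriptions without a test. With cyclic loess normalization between the arrays, which evens out differences that follow the signal, 40 of 49 genes were higher (medians 0.039 and 0.054 for the large and small subunit), and with quantile normalization 39 (medians 0.038 and 0.061). Of all probe sets, 49.7% and 49.2% were higher after these normalizations.

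**Figure D4:**
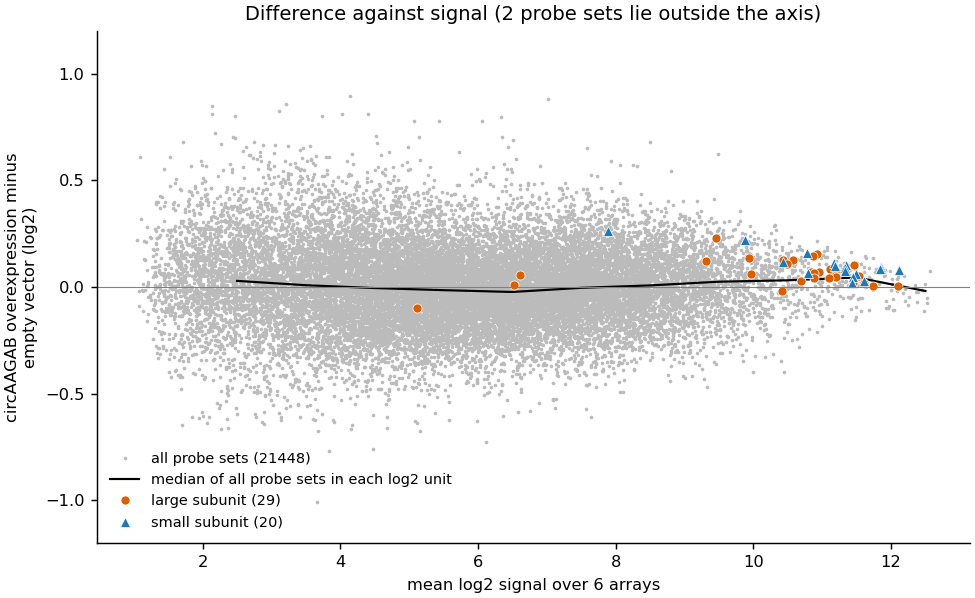
Difference between *circAAGAB* overexpression and empty vector against the mean log2 signal over the 6 arrays, for all 21448 probe sets (grey) and for the ribosomal protein genes of the large (orange circles) and small (blue triangles) subunit. The black line is the median of all probe sets in each log2 unit of signal, and 2 probe sets lie outside the axis. Most ribosomal protein genes lie at the bright end and just above the black line.

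The 4 genes that are later copies or tissue-restricted forms had SDs within groups of 0.15 to 0.44, all above the median of 0.083 over the 49 genes. *RPS27L*, a close relative of *RPS27* and a target of p53, had the highest difference of all 49 genes and the largest spread: 7.45, 8.48 and 8.15 on the *circAAGAB* arrays, against 7.39, 7.88 and 8.03 on the empty vector arrays. Both number 1 arrays were the lowest of their group, and the difference of 0.26 had a standard error of 0.28. Without the number 1 *circAAGAB* array it was 0.55 and its unadjusted p from limma was 0.0367. In that setting 1768 of all 21448 probe sets were under 0.05, in either direction. *RPL3L*, the form of *RPL3* found in heart and skeletal muscle, had 7.16, 6.02 and 6.39 with *circAAGAB* overexpression, against 6.53, 6.47 and 6.54 with the empty vector. The *circAAGAB* arrays lay on both sides of a tight empty vector group, and the difference of 0.011 became -0.31 without the number 1 *circAAGAB* array.

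*RPL39L*, known from testis and some cancer cells, had 6.46, 6.80 and 6.64 on *circAAGAB* arrays and 6.72, 6.52 and 6.49 on empty vector arrays, a difference of 0.055 (standard error 0.16). *RPL10L*, an intronless copy of *RPL10* that serves in the testis, had 5.28, 4.83 and 5.07 with *circAAGAB* overexpression, against 5.37, 5.02 and 5.09 with the empty vector. It was lower within each number, by 0.091, 0.19 and 0.023, but the groups overlapped, and the difference was -0.10 (standard error 0.18). Leaving all 4 out, 44 of 45 genes were higher, the medians were 0.069 for the large and 0.087 for the small subunit, and the share of the sum of squares between the groups was 20.4%. Ribosomal protein genes have many processed copies in the genome: the gene table names 1150 pseudogenes for 45 of the 49 genes, with a median of 15 a gene and up to 137 for *RPL21*, and none for these 4. How far a probe set also takes up such copies was not tested. The probe set of *RPL21* carries chromosome 10 in its identifier, while the gene lies on chromosome 13, so its value is uncertain. For the other 48 genes the identifier and the gene table name the same chromosome.

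Ribosomal proteins whose symbols the rule did not take were mostly on the same side. *RPL26L1*, a near copy of *RPL26*, had 8.40, 8.67 and 8.39 with *circAAGAB* overexpression, against 8.28, 8.21 and 8.21 with the empty vector, a difference of 0.25 (standard error 0.15). *RPL22L1* had the highest difference of these 5 genes, at 0.32 (standard error 0.26), *FAU*, which encodes *RPS30* fused to a ubiquitin-like protein, 0.15, and *RPL36AL* 0.093. *RPL7L1*, at -0.066, was the lowest. The median was 0.15, 4 of 5 were higher, and 0 passed an adjusted p under 0.05 with limma (0 unadjusted, 0 by the methods' test and 0 with the replicate number as a block). The read-through genes *RPL17-C18orf32* and *RPL36A-HNRNPH2*, which share exons with ribosomal protein genes, were at 0.13 and 0.15, and *RPS10-NUDT3* at -0.040.

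Genes that make or regulate ribosomes lay on both sides of 0. Of 12 translation factors and other genes whose mRNAs carry a TOP motif, 6 were higher and 6 lower, with a median of 0.023, from *EIF3E* at 0.19 to *EIF4B* at -0.39, both initiation factors. This list also holds *NACA* and *BTF3*, which bind new protein chains at the ribosome, the RNA-binding protein *HNRNPA1*, and the chaperones *NPM1* and *NAP1L1*. Of 68 ribosome biogenesis factors, 29 were higher and 39 lower, with a median of -0.033, from *MPHOSPH10* at 0.42 to *WDR3* at -0.60. Of 13 subunits and factors of RNA polymerase I, which transcribes ribosomal RNA, 5 were higher and 8 lower, with a median of -0.024, from *POLR1F* at 0.18 to *POLR1A* at -0.28. Of 15 regulators of ribosomal protein synthesis, 7 were higher and 8 lower, with a median of -0.011. Among these *TIAL1*, an RNA-binding protein that holds TOP mRNAs back under stress, was at 0.15, *RPS6KB1*, an S6 kinase, at -0.23 and *LARP1* at -0.22. Not one gene of these lists passed an adjusted p under 0.05 with limma, and at an unadjusted p under 0.05 there were 2, both ribosome biogenesis factors, 1 higher and 1 lower. By the methods' test, unadjusted, there were 1 translation factor, 3 biogenesis factors and 2 regulators. With the replicate number as a block there were 1 translation factor and 8 biogenesis factors, 4 higher and 4 lower, and again 0 after adjustment. Over all probe sets the unadjusted shares were 2.18% with limma, 4.14% by the methods' test and 6.79% with the block. The snoRNA host genes listed beside them were not analysed here.

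Other sets of genes for large complexes lay on the same side as the ribosomal proteins. Of 74 mitochondrial ribosomal proteins, a list chosen after its values were seen, 58 were higher and 16 lower, with a median of 0.098, and the medians within numbers 1, 2 and 3 were -0.0091, 0.25 and 0.055. Of 32 subunits of respiratory complex I, 27 were higher and 5 lower, with a median of 0.14, from *NDUFB3* at 0.36 to *NDUFV1* at -0.23, and medians of 0.037, 0.25 and 0.096 within numbers 1 to 3. Of 28 proteasome subunits 18 were higher and 10 lower, with a median of 0.081, from *PSMA3* at 0.28 to *PSMD2* at -0.36, and medians of 0.051, 0.18 and 0.0032. In all 3 lists the number 2 arrays had the largest median. So they did for RNA polymerase I (0.11, against -0.21 and 0.0063 in numbers 1 and 3), the translation factors (0.057) and the biogenesis factors (0.00023). For the regulators number 3 had the largest, at 0.14. In the 3 lists of complexes 0 genes passed an adjusted p under 0.05 with limma. At an unadjusted p under 0.05 there were 0, 1 and 1 with limma, against 2.18% of all probe sets. By the methods' test there were 3, 3 and 2, against 4.14%. With the replicate number as a block there were 6, 2 and 2, against 6.79%, all 6 mitochondrial ones higher. With the block, too, 0 passed after adjustment. Whether any list differed from the ribosomal proteins was not tested.

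**Figure D5:**
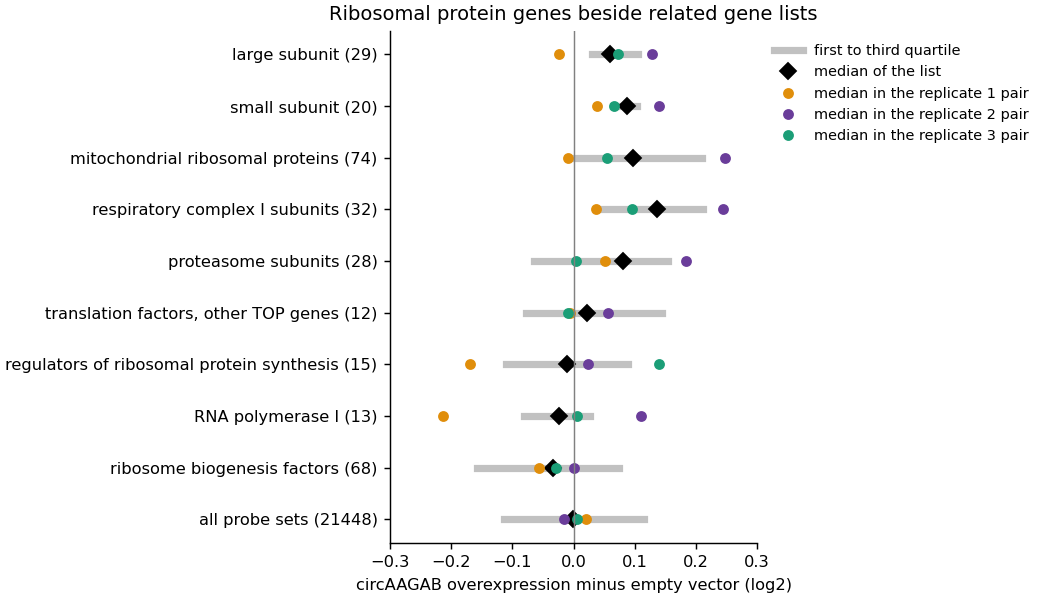
Median difference (black diamonds, log2, *circAAGAB* overexpression minus empty vector) of the ribosomal protein genes and of related gene lists, with the number of genes in brackets. Grey bars run from the first to the third quartile and coloured points are the medians within replicate numbers 1, 2 and 3. The overall medians of the ribosomal, mitochondrial ribosomal, complex I and proteasome lists lie above 0, with their number 2 medians furthest to the right. Those of the ribosome biogenesis, RNA polymerase I and regulator lists lie just below 0. The quartile bars of these lists, of the proteasome, of the translation factors (median 0.023) and of all probe sets cross 0. For RNA polymerase I and the regulators the number 2 and number 3 medians lie above 0.

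The labels were checked on *AAGAB*, whose exons the plasmid carries. It measured 10.97, 11.75 and 11.11 on the *circAAGAB* arrays, against 7.71, 7.56 and 7.73 on the empty vector arrays, which differ by 3.61 (standard error 0.22, limma adjusted p = 0.00319). The probe set does not tell plasmid RNA from that of the gene. All 49 ribosomal protein genes had a mean signal above 4.65, the 95th percentile of 349 olfactory receptor genes, which served as a gauge of background. Of the markers of MDA-MB-231 cells, *VIM*, *CD44*, *EGFR*, *CAV1* and *AXL* were all above the gauge, at 8.65 to 11.60, with *VIM* at 0.095 and *AXL* at -0.33 as the highest and lowest differences. Of the luminal and epithelial markers *PGR*, *CDH1* and, narrowly, *ESR1* were below it, while *GATA3* and *EPCAM*, with differences of 0.21 and 0.14, were above. Of 5 blood cell markers *CD14* alone was above, with a difference of 0.14, and of 6 fibroblast markers *COL1A1*, *COL1A2* and *PDGFRA* were, with *COL1A2* at -0.11 and *PDGFRA* at 0.40. None of these markers passed an adjusted p under 0.05 with limma. *AXL* (unadjusted p = 0.0425) and *PDGFRA* (0.0426) were under 0.05 before adjustment, *AXL* also by the methods' test, and *AXL*, *PDGFRA* and *DCN* with the replicate number as a block. The whole marker lists gave 2 of 5, 5 of 5, 4 of 5 and 3 of 6 genes higher for MDA-MB-231, luminal and epithelial, blood cell and fibroblast markers, and their part in the results was not tested.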

How the data were processed

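The authors measured total RNA on Clariom S arrays, applied robust multichip averaging (RMA) and deposited log2 signals, 1 value per probe set and array, which were taken unaltered. The submitters' processing notes also name RMA, and its software and version are not given in the sources. There are no read depths or detection calls.

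Of 21448 probe sets, 17709 carried 1 gene symbol, 0 several and 3739 none. Symbols came from the platform annotation, updated with the RefSeq gene table of GRCh38.p14. The test was two-sided, by limma 3.58.1 under R 4.3.3, with lmFit, eBayes and no covariate, and p-values were adjusted by Benjamini-Hochberg over all probe sets. It was also run on simulated data, drawn independently for each probe set and array. Those data held no effect of the replicate number, so that run cannot show how the test behaves with the one seen here. The methods' test (unpaired, equal variances) was an alternative. Alternatives otherwise changed the normalization, the filter on dim probe sets, the variance model, the block and the arrays used.

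Deviations from the group means correlated between the arrays that share a replicate number (0.603, 0.189 and 0.549 for numbers 1, 2 and 3, each over 0.1). By that criterion and the labels' numbers they were taken as pairs, but only for the differences within numbers and for the fit with the block. The main limma fit did not use the pairs. The number 2 *circAAGAB* array correlated more with the number 3 empty vector array (0.286). The number 2 empty vector array correlated more with the number 3 *circAAGAB* array (0.247). The pairing within number 2 is therefore uncertain. The genes and lists were chosen with earlier results of these data known. The text names the 5 genes of highest and lowest difference in each subunit, *RPLP1*, *RPS6*, *RPL11*, the 4 copies, the extremes of each other list above the gauge and *AAGAB*. Others were chosen after their values were seen.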

Additional observations from a re-analysis of the deposited data

How the results depend on the processing

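Of the 49 ribosomal protein genes, 0 had an adjusted p under 0.05 in any setting tried, with a smallest adjusted p of 0.586 over all settings and genes. 31 of the 49 genes kept their sign in every setting. With the replicate number as a block the differences are the same, 0 genes passed at an unadjusted p under 0.05, the lowest p was 0.110, and no call changed.

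The median difference stayed above 0 for both subunits in every setting, and leaving out 1 array at a time gave 0.031 to 0.11 for the large and 0.058 to 0.10 for the small subunit. Genes higher were 35 to 47, and genes lower 2 to 14, with 1 array left out. Over all probe sets the share higher then ran from 45.6% to 53.2%, and the median from -0.027 to 0.0147. The number of lower genes, 2 as reported, was 9 after cyclic loess and 10 after quantile normalization, 14 without both arrays of number 2 and 1 without the 4 copies. Genes higher at an unadjusted p under 0.05 were 3 by the methods' test and 0 to 1 with 1 array left out (*RPS27L* without the number 1 *circAAGAB* array). Of all 21448 probe sets, 888 were under 0.05 by the methods' test and 1768 without that array, in either direction. Cyclic loess and the removal of both number 2 arrays were chosen after seeing the data. The cause of these changes was not tested.

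Some single genes changed sign. After cyclic loess normalization the differences were -0.031 for *RPL12*, -0.032 for *RPL38*, -0.013 for *RPS16*, -0.015 for *RPS4X* and -0.0044 for *RPS7*. After quantile normalization they were -0.038 for *RPL12*, -0.018 for *RPS16*, -0.026 for *RPS4X* and -0.0049 for *RPS7*. Without both arrays of number 2 they were -0.062 for *RPL12*, -0.018 for *RPL38*, -0.054 for *RPL39L*, -0.0060 for *RPS12*, -0.036 for *RPS16*, -0.047 for *RPS4X*, -0.0045 for *RPS7* and 0.17 for *COL1A2*. Without both arrays of number 1 they were -0.30 for *RPL3L* and 0.11 for *RPL9*. With 1 array left out the ranges were -0.21 to 0.013 for *RPL10L*, -0.031 to 0.047 for *RPL12*, -0.012 to 0.019 for *RPL38*, -0.026 to 0.14 for *RPL39L*, -0.31 to 0.26 for *RPL3L*, -0.11 to 0.085 for *RPL9*, -0.00025 to 0.21 for *RPS12*, -0.032 to 0.069 for *RPS16*, -0.050 to 0.094 for *RPS4X*, -0.0039 to 0.062 for *RPS7*, -0.095 to 0.34 for *CD14*, -0.38 to 0.099 for *COL1A2*, -0.11 to 0.015 for *RPL7L1* and -0.47 to 0.047 for *RPS6KB1*. Of the 21 named ribosomal protein genes that kept their sign with any 1 array left out, 16 moved by over 1.5 times in at least 1 case (*RPS27* 0.0075 to 0.22, *RPLP1* 0.0013 to 0.18, *RPL27* 0.12 to 0.29, *RPS14* 0.12 to 0.34, *RPS27L* 0.039 to 0.55, *RPL10A* 0.060 to 0.22), and *RPL19*, *RPL30*, *RPL31*, *RPL36A* and *RPS23* did not. Of the 22 named genes outside the family 11 moved so far with their sign kept, *MPHOSPH10* (0.053 to 0.63) among them. *AAGAB* lost its adjusted p under 0.05 by the methods' test and without both arrays of number 2, with differences of 3.61 and 3.32. With 3 arrays a group, the differences of most of the 49 genes lie below their standard errors.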
